A study of Mus musculus with 6 samples.

Results

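The mitochondrial carriers are the SLC25 family of small membrane proteins, which move nucleotides, phosphate, carboxylates, amino acids, cofactors and protons across the inner membrane of mitochondria. Their genes were taken by symbol, as Slc25a followed by a number or as Ucp1, Ucp2 or Ucp3, which gave 50 rows of the 31017 in the deposited gene table. The table holds read counts of poly(A) RNA from 6 libraries made with a stranded kit from 4T1, a line of mouse breast cancer cells, all nucleofected with Cas9 and grown in collagen I gels. In 3 libraries the cells had received control guide RNAs (control replicates 1 to 3), and in 3 they had received guides for FGFR2, a cell surface receptor of fibroblast growth factors (KO replicates 1 to 3). The comparison asks how carrier transcripts differ with FGFR2 guides from those with control guides. All groups share the Cas9 nucleofection, the gel culture at 100000 cells per ml in collagen I of 1.2 or 2.4 mg/ml (which of these a library came from is not stated) and the release by collagenase at 300 U/ml. The labels name neither a clone nor a pool, nor the time in culture.

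Each carrier is built of repeated pairs of membrane helices and exchanges or cotransports its substrate, so the family sets which metabolites pass between the mitochondrial matrix and the cytosol. The ADP/ATP carriers and the phosphate carrier feed ATP synthase. The citrate, dicarboxylate and oxoglutarate carriers connect the tricarboxylic acid cycle with lipid synthesis and the transfer of reducing equivalents, and the aspartate-glutamate carriers belong to the malate-aspartate shuttle. Uncoupling proteins carry protons or small metabolites, and mitoferrins bring in iron for heme and iron-sulfur clusters.

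Library totals lay between 15531790 and 20447719 counts. Levels below are in CPM, the counts scaled by library total and TMM factor. Fgfr2 itself stood between 81.2 and 106 CPM over the 6 libraries, a log2 difference of -0.11 (SE 0.056) that edgeR did not call (adjusted p = 0.113). The labels give no cut position, and whole-gene counts cannot show a small edit, so these counts do not check the guides. Epithelial markers (Epcam, Cdh1, Krt8, Krt18, Krt19 and Cldn4) were present in all libraries, with summed levels of 4207 to 4318 CPM with control guides and 3384 to 3485 CPM with FGFR2 guides, and 5 of the 6 fell while Cdh1 rose. The 8 leukocyte markers summed to 14.3 to 16.7 CPM with control guides and 6.04 to 8.59 CPM with FGFR2 guides. Most of this was Cd68 (means of 13.7 and 5.97 CPM), which fell, followed by Csf1r (0.921 and 1.22 CPM), which was not called, while Adgre1 and Cd3e had 0 counts. The 6 fibroblast markers summed to 36.3 to 38.1 and 39.3 to 44.8 CPM, nearly all of it Pdgfra (36.4 and 39.4 CPM, not called), with Col3a1 and Lum at 0. At low levels Col1a1 was at 0.437 and 1.24 CPM. It entered the test only through the group in which it was higher, so its call (edgeR adjusted p = 0.00338) carries no weight. Dcn was at 0.0363 and 0.564 CPM and not tested. The 4 endothelial markers did not exceed 0.588 CPM in sum in any library, with Kdr and Tek at 0. The part of these markers in the results below was not tested, and in bulk RNA fewer cells of a type and less RNA per cell cannot be told apart.

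Of the 50 carrier genes, 41 had enough counts to be tested and 9 did not. In the edgeR quasi-likelihood test, with p-values adjusted over all 12158 tested genes by the Benjamini-Hochberg method and a threshold of 0.05, 13 carriers rose, 13 fell and 15 were not called. That is 63.4% called, beside 54.6% of all tested genes (27.1% higher and 27.5% lower). The median log2 fold change, always KO over control here, was 0.04 over the 41 carriers and -0.0061 over all tested genes, and the median absolute log2 fold change was 0.24 for the carriers and 0.21 for all. The KO libraries lay entirely above or below the control libraries for 30 of the 41 carriers (73.2%), beside 59.5% of all tested genes. The carriers thus moved in both directions in equal number, and the summed carrier CPM went from 2942 ± 38.8 to 3139 ± 38.9 (SD, n = 3), a ratio of 1.07.

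**Figure D1:**
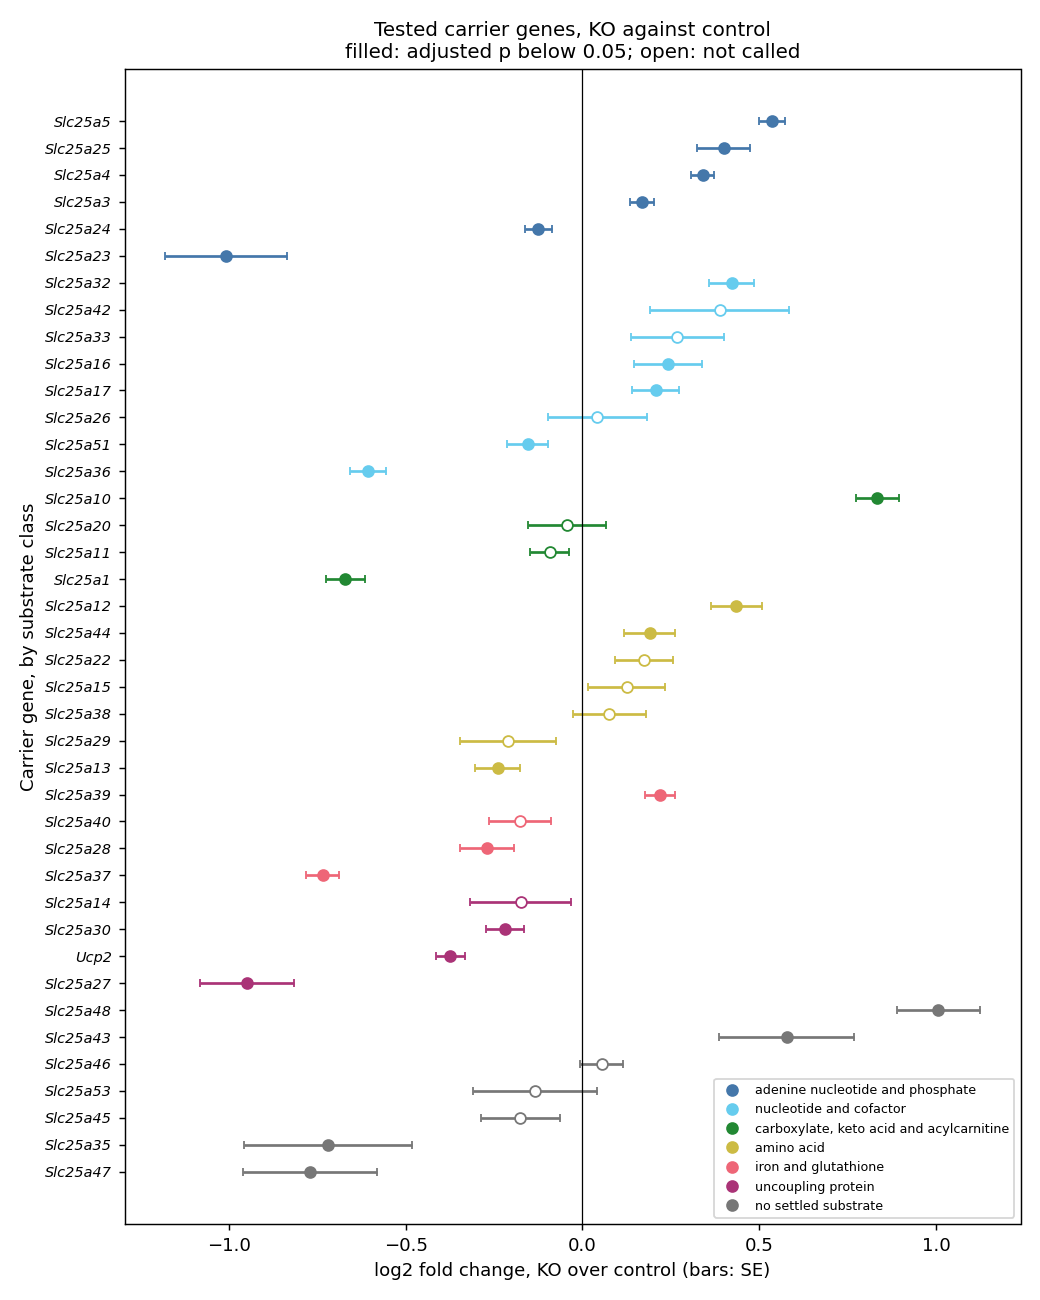
Log2 fold change (KO over control, x axis) of 40 of the 41 tested carrier genes (y axis), coloured by substrate class, with bars for the standard error and filled points for an adjusted p below 0.05. The extremes are Slc25a48 at 1.01 and Slc25a23 at -1.01, and all 4 tested uncoupling proteins lie to the left of 0, of which 3 were called.

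The counts by substrate class stand beside 54.6% of all tested genes called, 27.1% higher and 27.5% lower. The share called was near this in some classes, such as 55.6% of the nucleotide and cofactor carriers. Of 6 tested carriers of adenine nucleotides and phosphate, 4 rose and 2 fell. Of 9 nucleotide and cofactor carriers, 3 rose and 2 fell. Among 4 carriers of carboxylates, keto acids and acylcarnitine, 1 rose and 1 fell, and among 7 amino acid carriers 2 rose and 1 fell. The iron and glutathione carriers had 1 of 4 up and 2 down. The uncoupling proteins and their relatives had 0 of 4 up and 3 down, with the lowest class median (-0.30, beside -0.0061 for all tested genes). The remaining 7 tested carriers, listed here as without a settled substrate, had 2 up and 2 down. Each class is small, and no class was tested as a set.

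A log2 fold change of at least 0.5 in size was reached by 11 of the called carriers, 4 up and 7 down, which is 26.8% of those tested beside 17.6% of all tested genes (6.77% up and 10.8% down). The risers were Slc25a48, Slc25a10, Slc25a43 and Slc25a5, and those that fell were Slc25a23, Slc25a27, Slc25a47, Slc25a37, Slc25a35, Slc25a1 and Slc25a36. In all 11 the 2 groups did not overlap, but the 11 were chosen by the test on these same libraries. The gap is therefore no added support.

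**Figure D2:**
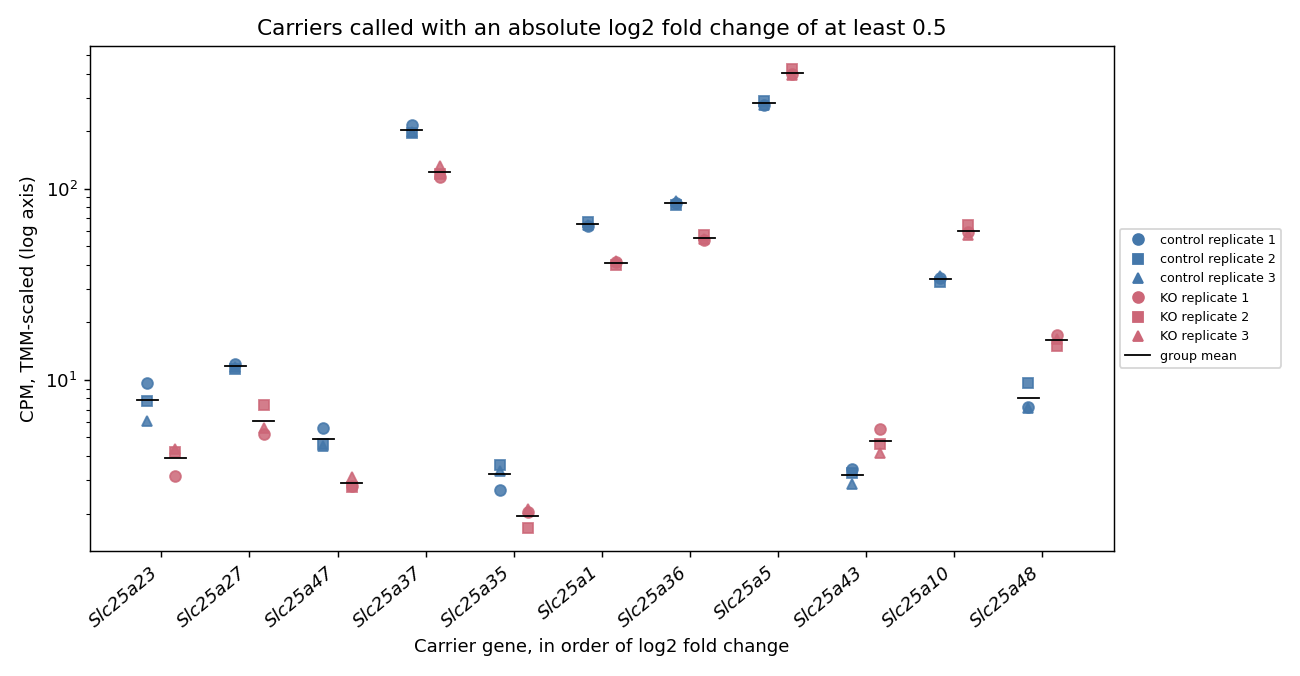
TMM-scaled CPM (y axis, log scale) in each library for the 11 carriers with an adjusted p below 0.05 and an absolute log2 fold change of at least 0.5, with black lines for group means. The KO libraries lie wholly below the control libraries for the 7 genes on the left and wholly above them for the 4 on the right. Levels run from 1.69 CPM (Slc25a35) to 424 CPM (Slc25a5). The genes were chosen by the test on these libraries, so the gap is no added support.

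For 5 of these the bases before the start site are shown, because they changed by at least 0.5 at levels above 30 CPM in the control and have a RefSeq promoter entry (Slc25a5, Slc25a10, Slc25a1, Slc25a36) or, for Slc25a48, because it had the largest rise. RefSeq (GRCm38.p6, the build of mm10) listed a start site for 39 of the 50 carriers. Each sequence runs 5′ to 3′ along the gene's strand from base -250 and stops before the first annotated transcript base, at -1 or, for Slc25a36, at -117. Capitals mark the matches, on either strand, to 3 short motifs: the E-box, with letters CACGTG, the CCAAT box and the GC box, with letters GGGCGG. An ETS motif, an AP-1 motif, an NRF1 motif and a sterol element core were searched too and have no match in these stretches.
Slc25a5 (chrX:36795347-36795596, plus strand): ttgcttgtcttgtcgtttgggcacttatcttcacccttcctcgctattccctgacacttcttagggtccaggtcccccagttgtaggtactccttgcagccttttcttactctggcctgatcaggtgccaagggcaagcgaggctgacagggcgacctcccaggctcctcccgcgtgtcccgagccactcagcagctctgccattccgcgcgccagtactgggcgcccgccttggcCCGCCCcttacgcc
Slc25a10 (chr11:120491587-120491836, plus strand): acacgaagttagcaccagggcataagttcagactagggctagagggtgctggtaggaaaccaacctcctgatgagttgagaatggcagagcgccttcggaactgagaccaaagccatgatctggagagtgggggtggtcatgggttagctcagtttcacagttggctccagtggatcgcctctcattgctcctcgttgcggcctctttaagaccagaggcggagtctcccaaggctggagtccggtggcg
Slc25a48 (chr13:56438105-56438354, plus strand): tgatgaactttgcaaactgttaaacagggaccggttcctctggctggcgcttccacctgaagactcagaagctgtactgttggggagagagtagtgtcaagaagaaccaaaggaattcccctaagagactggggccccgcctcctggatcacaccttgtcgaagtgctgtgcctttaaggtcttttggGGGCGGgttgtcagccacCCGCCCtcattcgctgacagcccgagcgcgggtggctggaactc
Slc25a1 (chr16:17928220-17928469, minus strand): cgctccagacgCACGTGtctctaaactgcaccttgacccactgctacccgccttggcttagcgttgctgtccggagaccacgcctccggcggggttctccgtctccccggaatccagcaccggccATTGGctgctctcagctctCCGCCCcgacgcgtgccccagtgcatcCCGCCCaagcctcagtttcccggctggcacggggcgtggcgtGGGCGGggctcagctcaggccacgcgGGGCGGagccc
Slc25a36 (chr9:97111158-97111291, minus strand): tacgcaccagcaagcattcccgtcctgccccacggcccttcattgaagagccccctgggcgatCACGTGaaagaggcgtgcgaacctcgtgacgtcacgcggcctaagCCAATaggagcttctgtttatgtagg

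The 2 printed sequences of carriers that fell, Slc25a1 and Slc25a36, each hold an E-box and a CCAAT box. The printed bases of the 3 that rose hold no E-box, CCAAT box, ETS or AP-1 motif. Slc25a10, which rose, does hold a CCAAT box in its whole window of 300 bases, so the CCAAT contrast depends on the bases printed. Over whole windows of 300 bases (250 before and 50 after the start site, the first listed window of a gene), an E-box was found in 3 of 9 fallen carriers with an entry and 0 of 11 that rose, beside 7.24% of all 27025 promoters. The third was Slc25a13. The ETS motif (CCGGAAG) was found in 4 of the 11 that rose (Slc25a25, Slc25a4, Slc25a3 and Slc25a17) and 0 of the 9 that fell, beside 9.12% of all promoters. GC boxes were found in 10 of 11 and 7 of 9, beside 35.9%, CCAAT boxes in 4 of 11 and 7 of 9, beside 37.9%, and the NRF1 motif in 0 of 39, beside 0.977%. The AP-1 motif, with letters TGANTCA, was in 0 of 11 and 1 of 9 (7.93% of all). The sterol element core, with letters CACCCCAC, was in 0 of 11 and 2 of 9 (2.77% of all). Carriers that neither rose nor fell also held an E-box (Slc25a31, Slc25a33 and Slc25a14) or the ETS motif (Slc25a54, Slc25a20 and Slc25a38). Over all 39 carriers with an entry, the E-box was in 6, the ETS motif in 7, the CCAAT box in 17 and the GC box in 31. The 27025 promoters were not limited to expressed genes. These are matches of letters in a window and say nothing about binding.

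Levels can be compared between genes only per length of transcript, here as CPM per kb of annotated exon (GENCODE M21, union of exons), averaged over the 6 libraries. The ADP/ATP carriers Slc25a4 and Slc25a5 stood highest at 234 and 208 CPM per kb, followed by the phosphate carrier Slc25a3 (115), the ATP-Mg/phosphate carrier Slc25a24 (67.6) and the glutathione carrier Slc25a39 (50.2). Then came mitoferrin Slc25a37 (27.0), the citrate carrier Slc25a1 (24.5), the oxoglutarate carrier Slc25a11 (23.6) and Ucp2 (21.4). The tested carrier with the lowest level was Slc25a53, at 0.574 CPM per kb.

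**Figure D3:**
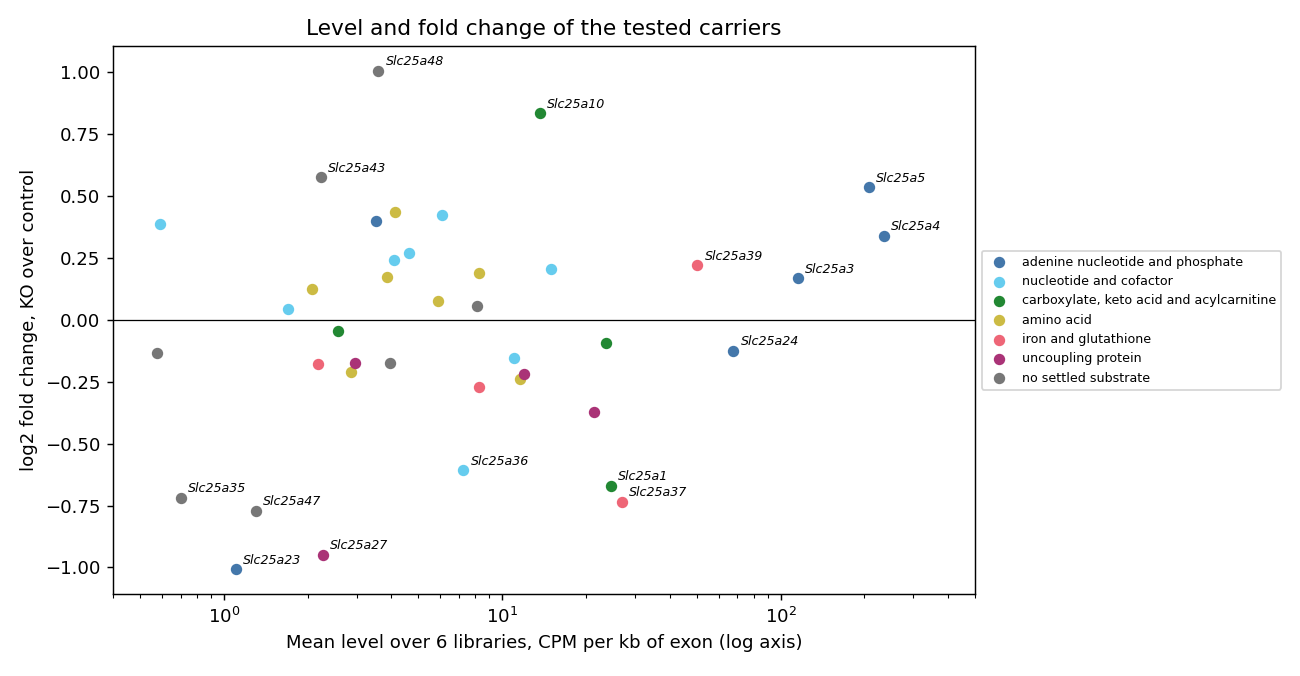
Mean level over the 6 libraries in CPM per kb of exon (x axis, log scale) against log2 fold change (y axis) for 40 of the 41 tested carriers, coloured by substrate class. Of the 5 carriers above 50 CPM per kb, 4 rose and Slc25a24 fell, by 0.12, where 27.1% of all tested genes rose and 27.5% fell. Of the next by level, Slc25a37, Slc25a1 and Ucp2 fell and Slc25a11 was not called. The largest falls on the log2 scale, Slc25a23 and Slc25a27, lie below 3 CPM per kb, and the largest rise, Slc25a48, lies at 3.59. No link between level and direction was tested.

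Carriers that serve ATP synthase rose. Slc25a5, the ADP/ATP carrier typical of dividing cells (chromosome X, 36795651 to 36798807, plus strand), measured, always in the order of replicates 1 to 3, 276, 287 and 275 CPM in the 3 control libraries and 398, 424 and 394 CPM in the 3 KO libraries. Every KO library was above every control library, a log2 difference of 0.54 (SE 0.037, edgeR adjusted p = 3.24e-15), or 1.45-fold. Slc25a4, the isoform known from heart and muscle, rose by 0.34 (SE 0.033, edgeR adjusted p = 4.42e-11), from 479, 497 and 485 to 605, 620.3 and 623 CPM. Slc25a3, which brings in the phosphate, had the highest counts of the family and rose by 0.17 (SE 0.034, edgeR adjusted p = 6.4e-05), from 602 ± 21.1 to 677 ± 15.1 CPM (SD, n = 3). The 3 KO values of each gene lay above the 3 control values. Slc25a31, the ADP/ATP carrier of testis, had 1 count in all, in control replicate 1. Per kb, Slc25a5 made up 45.2, 45.3 and 44.8% of the ADP/ATP carrier messages in the control libraries and 48.5, 49.4 and 47.5% in the KO libraries. ADP/ATP carriers have processed pseudogene copies in the genome, and how the authors' counting treated reads that fit several places is not given in the sources used here, so the split between these genes is uncertain to that extent.

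The 3 expressed ATP-Mg/phosphate carriers, calcium-regulated proteins that adjust the pool of adenine nucleotides in the matrix, moved apart. Slc25a23 was at 9.65, 7.73 and 6.07 CPM in the control libraries and 3.16, 4.19 and 4.35 CPM in the KO libraries, the groups not overlapping although the control values were themselves widely spread. It fell by 1.01 (SE 0.17, edgeR adjusted p = 5.6e-06), to a level 2.01-fold lower. Slc25a25 went the other way, from 24.1, 22.6 and 24.7 to 31.6, 32.8 and 29.7 CPM, a rise of 0.40 (SE 0.074, edgeR adjusted p = 2.18e-05). The abundant Slc25a24 fell by 0.12 (SE 0.038, edgeR adjusted p = 0.00596), from 242 ± 8.13 to 222 ± 6.23 CPM (SD, n = 3), a call lost without control replicate 2. Per kb, Slc25a24 made up 94.0% of the 3 in the control and 93.2% in the KO libraries, with overlapping groups. Slc25a41 had 0 counts in all libraries.

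As a class, the adenine nucleotide and phosphate carriers summed to 1642 ± 38.6 CPM with control guides and 1956 ± 31.4 CPM with FGFR2 guides (SD, n = 3). Their share of all carrier counts on the CPM scale was 55.1, 56.6 and 55.8% in the 3 control libraries and 62.1, 62.6 and 62.2% in the 3 KO libraries. The iron and glutathione class went from 13.1% ± 0.356 to 10.1% ± 0.405, and the uncoupling proteins went from 8.40% ± 0.147 to 6.17% ± 0.0537 (SD, n = 3). The amino acid class had about the same share in both groups, 5.37% ± 0.148 and 5.34% ± 0.224. A share must fall in some classes when it rises in another, so these values describe one composition.

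**Figure D4:**
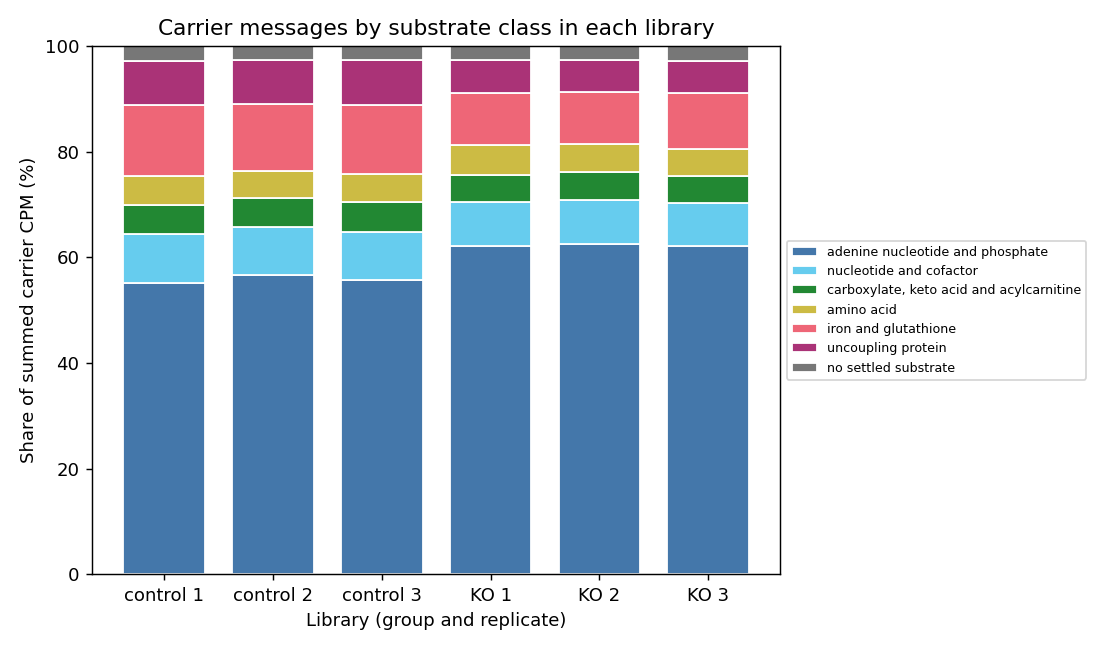
Stacked bars of the share of summed carrier CPM (y axis, percent) taken by each substrate class in each of the 6 libraries (x axis). The bottom segment, adenine nucleotide and phosphate carriers, reaches 55.1 to 56.6% in the control and 62.1 to 62.6% in the KO libraries.

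Among the 16 listed subunits and regulators of ATP synthase, which uses the ADP and phosphate these carriers bring in, 8 rose, 1 fell and 7 were not called (median 0.13). The 9 of 16 called, in either direction, are about the same share as the 54.6% of all tested genes that were called (27.1% higher and 27.5% lower). The smallest adjusted p-values were those of Atp5g1, a subunit of the c-ring (0.41, edgeR adjusted p = 4.81e-10), Atp5j2 (0.24, 1.49e-04), Atp5o (0.19, 1.62e-04) and the catalytic subunit Atp5b (0.13, 8.69e-04). Of 12 genes of the route that inserts carriers into the inner membrane, 7 rose and 1 fell (median 0.24), where 27.1% of all tested genes rose and 27.5% fell. They included the small chaperone Timm13 (0.28) and the pore Tomm40 (0.24) as risers, and Timm22, the channel subunit, rose by 0.21 (SE 0.071, edgeR adjusted p = 0.0102). Tomm22 and Timm29 rose by 0.27 and 0.34, and the outer membrane receptor Tomm20 fell by 0.12.

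The carboxylate carriers split. Slc25a1, which exports citrate for lipid synthesis (chromosome 16, 17925223 to 17928219, minus strand), measured 64.0, 66.9 and 64.8 CPM with control guides and 41.3, 40.04 and 41.7 CPM with FGFR2 guides. The groups were far apart relative to their spread, and the gene fell by 0.67 (SE 0.055, edgeR adjusted p = 5.84e-13). Slc25a10, the dicarboxylate carrier that exchanges malate and succinate for phosphate (chromosome 11, 120491840 to 120499187, plus strand), measured 34.1, 32.6 and 35.0 CPM with control guides and 59.2, 64.9 and 57.0 CPM with FGFR2 guides. All KO values exceeded all control values, a rise of 0.83 (SE 0.062, edgeR adjusted p = 2.7e-14), or 1.78-fold. The oxoglutarate carrier Slc25a11 was at 51.6 ± 0.995 and 48.4 ± 0.314 CPM (SD, n = 3), a difference of -0.09 that was not called (edgeR adjusted p = 0.159). Of the summed level per kb of Slc25a1, Slc25a10 and Slc25a11, Slc25a10 held 15.6, 14.5 and 15.8% in the control and 29.1, 31.2 and 28.1% in the KO libraries. Slc25a20, which takes acylcarnitines into the matrix for oxidation, was not called at -0.04 (edgeR adjusted p = 0.76), and the oxoadipate carrier Slc25a21 had 0 counts.

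Genes next to these carriers in metabolism were counted from lists. Of 9 genes of citrate metabolism, of acetyl-CoA supply in the cytosol and of fatty acid synthesis, 7 fell and 2 rose (median -0.18, beside -0.0061 over all tested genes, of which 27.5% fell and 27.1% rose). Acly, which splits exported citrate into acetyl-CoA, fell by 0.23 (SE 0.036, edgeR adjusted p = 1.29e-06), and cytosolic Idh1 fell by 0.71 and Acss2, which makes acetyl-CoA from acetate, by 0.58. Acacb fell by 1.18 from 7.98 to 3.50 CPM. Citrate synthase (Cs) and malic enzyme (Me1) rose by 0.23 and 0.21. In the carnitine shuttle 2 of 7 tested genes rose and 1 fell (median -0.04), beside the same 27.1% and 27.5% of all tested genes. Cpt1a, the entry enzyme that forms the acylcarnitines, rose by 1.15 (SE 0.058, edgeR adjusted p = 3.06e-19) from 40.4 ± 3.69 to 89.2 ± 3.05 CPM (SD, n = 3), while Cpt2 was at -0.11 and not called.

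Of the amino acid carriers, the pair of aspartate-glutamate carriers that drive the malate-aspartate shuttle moved in opposite directions. Slc25a12 (aralar) went from 26.2, 23.7 and 27.2 to 35.4, 35.7 and 32.9 CPM. It rose by 0.43 (SE 0.073, edgeR adjusted p = 3.92e-06), with no overlap between groups. Slc25a13 (citrin), the member of this class with the highest counts, was at 49.7, 48.1 and 45.1 CPM with control guides and 41.6, 43.1 and 36.7 CPM with FGFR2 guides. It fell by 0.24 (SE 0.064, edgeR adjusted p = 0.0018), again without overlap. Per kb, Slc25a12 made up 21.4, 20.3 and 23.8% of the pair in the control and 30.6, 30.0 and 31.7% in the KO libraries. Among 6 tested enzymes of this shuttle and the glycerol phosphate shuttle, 2 rose and 1 fell (median 0.02), beside 27.1% and 27.5% of all tested genes: Mdh2 rose by 0.27 and Gpd1l by 0.17, Gpd2 fell by 0.14, and the transaminases Got1 and Got2 were at -0.10 and 0.00078 and not called.

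Slc25a44, a carrier of branched-chain amino acids, rose by 0.19 (SE 0.072, edgeR adjusted p = 0.024), from 27.6 ± 0.351 to 31.4 ± 1.94 CPM (SD, n = 3). That call was lost when control replicate 2 or 3 or KO replicate 2 was left out. Of 6 tested genes of branched-chain amino acid breakdown, 4 fell and 0 rose (median -0.39), while 27.5% of all tested genes fell and 27.1% rose: Bckdha, a subunit of the rate-limiting dehydrogenase, fell by 0.51, the transaminase Bcat2 by 0.40, Dbt by 0.38 and the phosphatase Ppm1k by 1.01. The glutamate carrier Slc25a22 was at 0.17 (edgeR adjusted p = 0.0671), the ornithine carrier Slc25a15 at 0.12, the basic amino acid carrier Slc25a29 at -0.21 and the glycine carrier Slc25a38 at 0.08, none of them called. Among 9 tested genes of ornithine, proline and arginine metabolism, 3 rose and 4 fell (median -0.11), beside 27.1% and 27.5% of all tested genes. The smallest adjusted p-values were those of argininosuccinate synthase Ass1, which rose by 2.99 from 11.4 ± 1.20 to 90.3 ± 4.05 CPM (SD, n = 3), Asl (-0.57), the mitochondrial arginase Arg2 (-1.63, from 6.75 to 2.19 CPM) and the cytosolic arginase Arg1. Arg1 was at 0, 0.295 and 0 CPM with control guides and 2.19, 1.17 and 1.53 CPM with FGFR2 guides, so it entered the test only through the group in which it was higher, and its call carries no weight.

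Iron and glutathione carriers moved in both directions. Slc25a37 (mitoferrin 1), which brings iron into mitochondria (chromosome 14, 69241848 to 69285112, minus strand), measured 216, 195 and 198 CPM with control guides and 115, 119 and 132 CPM with FGFR2 guides. With the groups well apart, it fell by 0.73 (SE 0.047, edgeR adjusted p = 4.19e-16), the smallest adjusted p of the family. Its broadly expressed relative Slc25a28 (mitoferrin 2) was at 34.1, 33.7 and 33.4 CPM and at 24.0, 30.8 and 29.0 CPM, and fell by 0.27 (SE 0.076, edgeR adjusted p = 0.00304). That call rests on KO replicate 1, the lowest library, without which it was lost. Per kb, Slc25a37 made up 79.8, 78.3 and 78.7% of the mitoferrin messages in the control and 74.8, 70.6 and 74.0% in the KO libraries.

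Glutathione import is known for Slc25a39 and its relative Slc25a40. Slc25a39 rose by 0.22 (SE 0.042, edgeR adjusted p = 3.44e-05), from 124, 132 and 128 to 151, 143 and 153 CPM, whereas Slc25a40 was at 19.4 ± 0.959 and 17.1 ± 0.807 CPM (SD, n = 3), a difference of -0.18 that was not called (edgeR adjusted p = 0.0919). Of 7 genes of glutathione synthesis and reduction 3 rose and 2 fell (median 0.13), beside 27.1% and 27.5% of all tested genes, with Gclc, the rate-limiting synthetic subunit, and Gpx1 up by 0.66 and 0.58, and Gsr and Gpx4 down (-0.58 and -0.45). Among 18 tested genes of heme and iron-sulfur assembly and iron uptake, 8 rose and 4 fell (median 0.16), again beside 27.1% and 27.5%. The transferrin receptor Tfrc rose by 0.56 (SE 0.039, edgeR adjusted p = 5.06e-15) from 181 ± 8.73 to 267 ± 4.70 CPM (SD, n = 3), and Glrx5 and the scaffold Iscu, both of iron-sulfur assembly, rose by 0.33 and 0.40. Ppox, of heme synthesis, fell by 0.74.

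Of the uncoupling proteins, Ucp2 was the only one of Ucp1 to Ucp3 with more than 18 counts in all. It measured 167, 169 and 169.7 CPM in the control and 127, 130.4 and 133 CPM in the KO libraries. The groups did not overlap, and the gene fell by 0.37 (SE 0.040, edgeR adjusted p = 5.43e-10). Among the relatives, which are best known from brain and kidney, Slc25a27 (UCP4) was at 12.2, 11.5 and 11.7 CPM with control guides and 5.24, 7.41 and 5.63 CPM with FGFR2 guides. It fell by 0.95 (SE 0.13, edgeR adjusted p = 1.51e-07). Slc25a30 fell by 0.22 (SE 0.054, edgeR adjusted p = 8.41e-04) from 58.8 ± 1.45 to 50.5 ± 0.676 CPM (SD, n = 3), and Slc25a14 (UCP5) was at -0.18 and not called (edgeR adjusted p = 0.304).

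Ucp1, the proton carrier of brown fat, was too low to pass the filter and was not tested in the main comparison. It had 10, 3 and 5 counts in control replicates 1 to 3 and 0 in each KO library. With the control counts taken as exact and the KO group set to a floor of 3 counts over the group, it was at least 6.48-fold lower. With no filter on low counts it was tested and called lower (edgeR adjusted p = 0.00213), which made it the only carrier to gain a call in that setting. It entered that test only through the group in which it was higher, so the call carries no weight. The adipocyte markers Adipoq and Plin1 had 0 counts in all libraries, and the 4 markers of that list summed to 0.436 to 0.542 CPM with control guides and at most 0.0511 CPM with FGFR2 guides, through Cidea and Fabp4. Their part in the Ucp1 counts was not tested. Ucp3, of muscle, had 1 count in control replicate 1 and 3 in KO replicate 1.

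Nucleotide and cofactor carriers were all tested. Slc25a36, which exchanges pyrimidine nucleotides (chromosome 9, 97074961 to 97111157, minus strand), measured 83.9, 82.6 and 85.8 CPM with control guides and 54.2, 56.9 and 54.4 CPM with FGFR2 guides. It fell by 0.61 (SE 0.050, edgeR adjusted p = 6.74e-13), the gap between groups being far larger than the spread within them. The related Slc25a33 was at 7.91 ± 0.847 and 9.53 ± 1.46 CPM (SD, n = 3), a difference of 0.27 that was not called (edgeR adjusted p = 0.0855). Per kb, Slc25a36 made up 65.2, 67.8 and 70.2% of this pair in the control and 55.6, 55.8 and 48.8% in the KO libraries. An antisense gene shares 14.9% of the exon bases of Slc25a33, and whether the strand was used in counting is not given in the sources used here. Smaller overlaps with genes on the opposite strand exist for other carriers, among them Slc25a11 (8.92%), Slc25a10 (6.60%), Slc25a37 (6.33% and 1.53%), Ucp2 (4.36%) and Slc25a23 (3.17%).

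The folate carrier Slc25a32 rose by 0.42 (SE 0.064, edgeR adjusted p = 7.74e-07), from 31.7, 33.0 and 29.9 to 43.0, 42.1 and 42.0 CPM. Of 6 tested enzymes of folate one-carbon metabolism, 4 rose and 1 fell (median 0.21), beside 27.1% and 27.5% of all tested genes: Mthfd1, Shmt1 and Mthfd2 rose by 0.29, 0.31 and 0.25, and Mthfd1l fell by 0.20. Slc25a17, the peroxisomal carrier of CoA and other cofactors, rose by 0.21 (edgeR adjusted p = 0.00857), and Slc25a16 rose by 0.24 (edgeR adjusted p = 0.0306). The call for Slc25a17 was lost without control replicate 3 or KO replicate 2, and that for Slc25a16 with DESeq2, with upper quartile scaling and without control replicate 3 or KO replicate 1. The NAD carrier Slc25a51 fell by 0.15 (edgeR adjusted p = 0.0216), a call lost with DESeq2 and when control replicate 1 or 3 or KO replicate 2 or 3 was left out. The carriers of S-adenosylmethionine (Slc25a26, 0.04) and CoA (Slc25a42, 0.39) were not called.

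**Figure D5:**
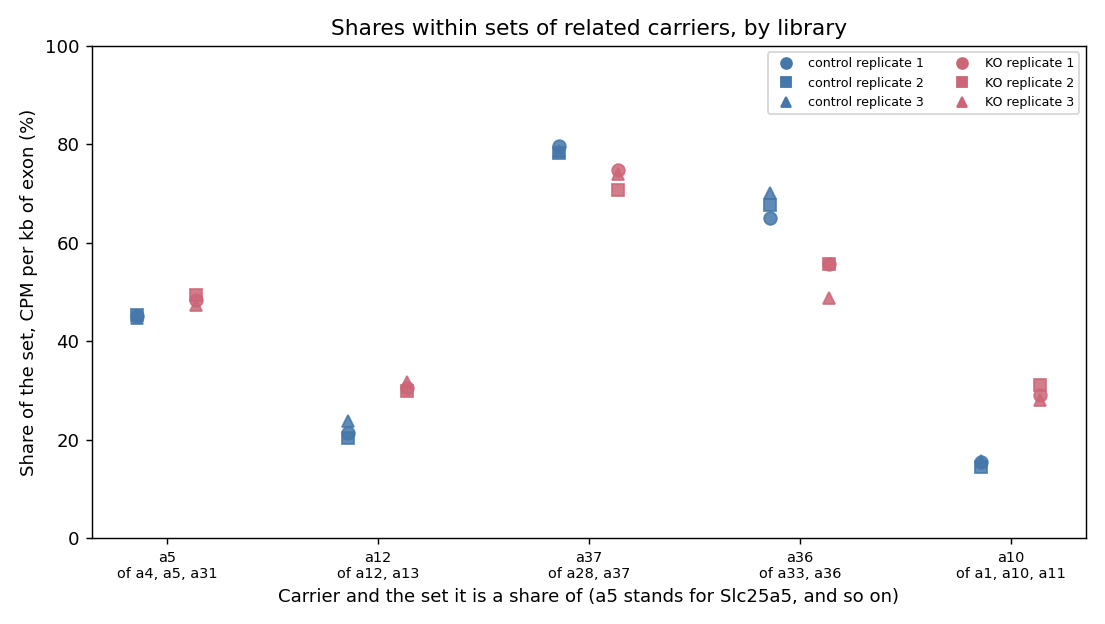
Share of a carrier within its set of related carriers, from CPM per kb of exon (y axis, percent), for each library; a5 on the x axis stands for Slc25a5 and so on. The groups are apart in each of the 5 sets drawn, with Slc25a36 within its pair going from 65.2 to 70.2% down to 48.8 to 55.8%. The sets were chosen after the values were seen. Of the shares not drawn, that of Slc25a24 overlapped between groups, and those of Slc25a23, Slc25a25 and Slc25a39 were apart.

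The class listed here as without a settled substrate held the largest rise. Slc25a48 (chromosome 13, 56438355 to 56474239, plus strand) measured 7.19, 9.65 and 7.16 CPM with control guides and 17.2, 15.1 and 16.3 CPM with FGFR2 guides. Its lowest KO value lay above its highest control value, and it rose by 1.01 (SE 0.12, edgeR adjusted p = 3.4e-09), or 2.01-fold. Slc25a43 went from 3.43, 3.25 and 2.84 to 5.56, 4.60 and 4.15 CPM, a rise of 0.58 (SE 0.19, edgeR adjusted p = 0.01) that was lost without KO replicate 1. Slc25a46, a protein of the outer membrane tied to mitochondrial shape and the member of this class with the highest counts, was at 45.3, 41.4 and 42.7 CPM and at 42.3, 45.5 and 46.5 CPM. These groups overlapped, and it was not called (log2 fold change 0.05, edgeR adjusted p = 0.467).

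Slc25a47, known from liver, was at 5.61, 4.63 and 4.52 CPM with control guides and 2.78, 2.76 and 3.11 CPM with FGFR2 guides, and fell by 0.77 (SE 0.19, edgeR adjusted p = 7.94e-04). Slc25a35 was at 2.67, 3.59 and 3.36 CPM and at 2.03, 1.69 and 2.12 CPM, and fell by 0.72 (SE 0.24, edgeR adjusted p = 0.0104), a call lost without control replicate 2. Both groups of Slc25a35 rest on 33 to 73 counts a library, and 31.3% of its exon bases are shared with Rangrf on the opposite strand. Slc25a45 and Slc25a53 were at -0.18 and -0.13 and not called.

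Of the other members that did not pass the filter, those with any count were not called without it either. Slc25a21, Slc25a41 and Slc25a54 had 0 counts in all libraries. Slc25a18, a glutamate carrier, had 0, 1 and 1 counts in the control and 2, 13 and 2 in the KO libraries, so that most came from KO replicate 2. Slc25a2, an ornithine carrier, had 24 counts in all, and Slc25a34 had 5 in the control and 9 in the KO libraries. Every tested carrier had at least 33 counts in every library, so none passed the filter through 1 group alone.

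A further list held 18 other proteins of the mitochondrial membranes, mostly transporters and including the carrier relatives Mtch1 and Mtch2. Of these, 7 rose, 1 fell and 10 were not called (median 0.12), a smaller share called than the 54.6% of all tested genes (27.1% higher and 27.5% lower). Letm1, an ion exchanger of the inner membrane, rose by 0.58 (SE 0.048, edgeR adjusted p = 7.64e-13), the pyruvate carrier subunit Mpc2 rose by 0.56 while Mpc1 was at 0.12 and not called, Smdt1 of the calcium uniporter rose by 0.37 and the serine transporter relative Sfxn3 fell by 0.23. Of 9 tested regulators of mitochondrial gene expression, 3 rose and 2 fell (median 0.06), beside 27.1% and 27.5% of all tested genes. Pprc1 and Ppard rose by 0.38 and 0.30, Tfb2m rose by 0.27, and Gabpa, a subunit of an ETS family regulator of respiratory genes, fell by 0.31 (SE 0.045, edgeR adjusted p = 3.66e-07). Nrf1 and Tfam were at -0.0025 and 0.09 and not called, and Ppargc1a had 23 counts in all libraries and was not tested.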

How the data were processed

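The authors deposited a table of raw read counts, with genes as rows and libraries as columns. Per the submitters' processing notes, FastQC 0.11.9, STAR 2.7.9a, featureCounts and R 4.1.1 were used, and the builds hg38 and mm10 are named without a role. Libraries came from a stranded kit, per the labels' protocols. For counting, the annotation, strand setting and handling of multiply aligned reads were not given in the sources used here. Columns were matched to libraries by name, with 0 left over, and 0 symbols were repeated.

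Both groups entered a fit in edgeR 4.0.16 (R 4.3.3). Low genes were removed with filterByExpr (minimum count 10, minimum total 15), libraries were TMM-scaled, and a quasi-likelihood F-test with group as the only term was run on all 12158 remaining genes. The Benjamini-Hochberg adjusted p had to be below 0.05. Standard errors were derived from the F statistic and the log2 fold change. Members, classes and gene lists (12 lists, 132 entries) were chosen with earlier results of these data known. The members named in full were those called with an absolute log2 fold change of at least 0.5, the member of each class with the highest counts and the Ucp genes, and in each list the 4 genes with the smallest adjusted p or direct partners of a carrier. Other list genes and other members with values in every library, the related sets whose shares are given, and the sequences shown were chosen after the values were seen. A tested carrier that was not called and a marker gene are counted in the totals but not reported here by name.

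Replicates differed by more than counting noise (chi-square over its degrees of freedom ran from 2.29 to 4.85 within groups). The labels do not say that replicates were separate cultures, so the p-values rest on a spread among libraries that could be technical only. The fit was tested on simulated data. Alternatives were DESeq2 1.42.0, limma-voom 3.58.1, other scalings and filters, a minimum fold change of 1.5, the replicate number as a block and leaving out each library.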

Additional observations from a re-analysis of the deposited data

How the results depend on the processing

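Of the 26 carriers called, 18 kept their call under every alternative that tested them other than a minimum fold change of 1.5, and 5 under that one too (Slc25a10, Slc25a23, Slc25a27, Slc25a37 and Slc25a48). A filter at a mean of 5 CPM left Slc25a35, Slc25a42, Slc25a43, Slc25a47 and Slc25a53 untested. Tested against that minimum fold change, 5 carriers passed, 2 higher and 3 lower, and 907 genes in all, 402 higher and 505 lower. Its construction asks for a larger change, so fewer genes pass. Leaving out each library in turn, the median log2 fold change of the tested carriers ran from -0.062 (without KO replicate 2) to 0.062 (without control replicate 1). It was -0.00096 without KO replicate 1 and 0.0017 without KO replicate 3, so it had no stable sign. The directions that turned were all of carriers not called: Slc25a53 (9.0e-05 without control replicate 1, and -0.21 to that value over all left-out libraries), Slc25a26 (-0.037 without control replicate 3 and -0.062 without KO replicate 2, up to 0.18), Slc25a20 (0.057 without control replicate 3, down to -0.096) and Slc25a38 (-0.040 without KO replicate 1, up to 0.19). The cause was not tested. Slc25a22 was called without control replicate 1 or KO replicate 3 (edgeR adjusted p = 0.0355 and 0.0489), and Slc25a33 without KO replicate 1 (0.0396). With no filter on low counts Ucp1 was called lower (0.00213), so that 27 carriers were called, 13 higher and 14 lower, and 6694 genes in all. The call of Ucp1 carries no weight, since all its counts were in the control group. With the replicate number as a block, 6443 genes were called in place of 6639, and no carrier's call changed. Deviations of libraries with the same number had correlations of -0.066, 0.040 and -0.068, beside -0.059 to 0.12 for libraries with different numbers. With 3 libraries in a group, this cannot decide whether equal numbers shared a culture or a preparation. Depth limits the 9 carriers that were not tested, each with 24 counts or fewer over the 6 libraries.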
